A study of Mus musculus with 23 samples.

Results

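The caspases, the BCL2 family, the inhibitor-of-apoptosis proteins, the p53 family with its inhibitors MDM2 and MDM4, and the GADD45 stress genes were examined in mouse mammary carcinomas treated with abemaciclib, an inhibitor of the cell-cycle kinases CDK4 and CDK6. Members were matched by gene symbol alone, which gave 39 of the 3826 genes on the panel. The set itself was chosen with earlier results of these data known. Birc5 matched by name but was left out by rule. Of the 39, 36 had enough reads to be tested, and Bcl2l10, Casp14 and Trp73 did not. Bcl2l10 had at most 1 read in any tumour.

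Tumours came from 2 groups, 12 from mice given abemaciclib at 90 mg/kg daily by gavage and 11 from mice given control vehicle. In both groups the mice were induced with doxycycline at an age of 6 weeks and were randomised once tumours were established, and tissue was frozen after the 12th dose. The labels name no strain, no transgene and no promoter that drives one, and they do not say whether any tumours share an animal. The main tests treated each tumour as independent, so p-values may be too small if some tumours share an animal. Libraries were made by amplifying 1 stretch of about 110 bases per gene, so levels are compared between tumours for 1 gene and not between genes.

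Apoptosis through mitochondria begins when BH3-only proteins such as BIM bind survival proteins such as BCL2, BCL-XL and MCL1. That frees the pore formers BAX and BAK to open the outer membrane, and APAF1 and caspase-9 then switch on the executioner caspases. The death-receptor route starts instead at caspase-8, and p53 feeds both through the genes it induces, with MDM2 as its main inhibitor. In mammary epithelium this machinery is known for clearing cells during involution, and BIM for emptying the ducts of lumenal cells during development.

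Library totals were 2756919 to 4990391 reads in abemaciclib tumours and 3044380 to 4492736 reads in control tumours. The apoptosis and p53 genes held 0.370% to 0.555% of the reads in abemaciclib tumours and 0.428% to 0.625% in control tumours. The luminal markers Epcam, Krt8, Krt18, Krt19 and Cdh1 were summed, which does not show each marker on its own. The sum was 4291 to 11320.3 CPM (median 5764) in abemaciclib tumours and 5108 to 7415 CPM (median 6178) in control tumours. All 6 proliferation markers lay below 0 on the log2 fold change scale (median -1.04), and their summed level was 48.9 to 746 CPM (median 158) in abemaciclib tumours against 197 to 1071 CPM (median 476) in control tumours. EdgeR called 0 of them, DESeq2 1 and limma-voom all 6. The 4 macrophage markers on the panel all had positive log2 fold changes, with summed levels of 923 to 1741 CPM (median 1109) in abemaciclib tumours and 619.9 to 1022 CPM (median 806) in control tumours. Of these edgeR called 0, DESeq2 3 and limma-voom 3. In these bulk tumours, fewer cells of a type and less RNA per cell cannot be told apart. Abemaciclib tumours 3 and 10 were highest in the basal keratin Krt14, and results that change direction or call without them are given both ways.

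No gene of the apoptosis and p53 set passed an adjusted p of 0.05 by edgeR, the quasi-likelihood test across all genes with Benjamini-Hochberg adjustment, nor did any other gene on the panel (0% of 2925 tested). That count of all genes was 47 without abemaciclib tumour 10, 30 without abemaciclib tumour 2 and 93 without abemaciclib tumours 3 and 10, and no member was among the calls in any of the 3 fits. At an unadjusted p under 0.05, 1 of 36 members passed, Bcl2l11, which was lower with abemaciclib. Of all genes tested 13.4% passed at that level, 5.81% lower and 7.59% higher with abemaciclib. DESeq2 called 0 of the 36, beside 2.05% of all genes called (1.61% higher). Its unadjusted p was under 0.05 for 2 of the 36 and for 415 of all 2925 genes tested. Limma-voom with quality weights called 1, Bcl2a1a, beside 4.34% of all genes called (1.95% higher). Its unadjusted p was under 0.05 for 4 of the 36 and for 520 of all 2925 genes. In none of the 36 did the 2 groups separate in CPM, which was also so for every gene on the panel tested (0%).

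The log2 fold changes of abemaciclib over control were positive in 18 members and negative in 18. Their median was -0.0027, against 0.0055 over all genes tested. Their absolute size had a median of 0.140 and a 90th percentile of 0.344, against 0.138 and 0.513 over all genes. With libraries scaled by their totals alone, the median of all genes shifted to -0.12, and 12 members were then positive and 24 negative. The spread between tumours of 1 group, as an SD of log2 CPM, had a median of 0.346 in the members and 0.367 over all genes.

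**Figure D1:**
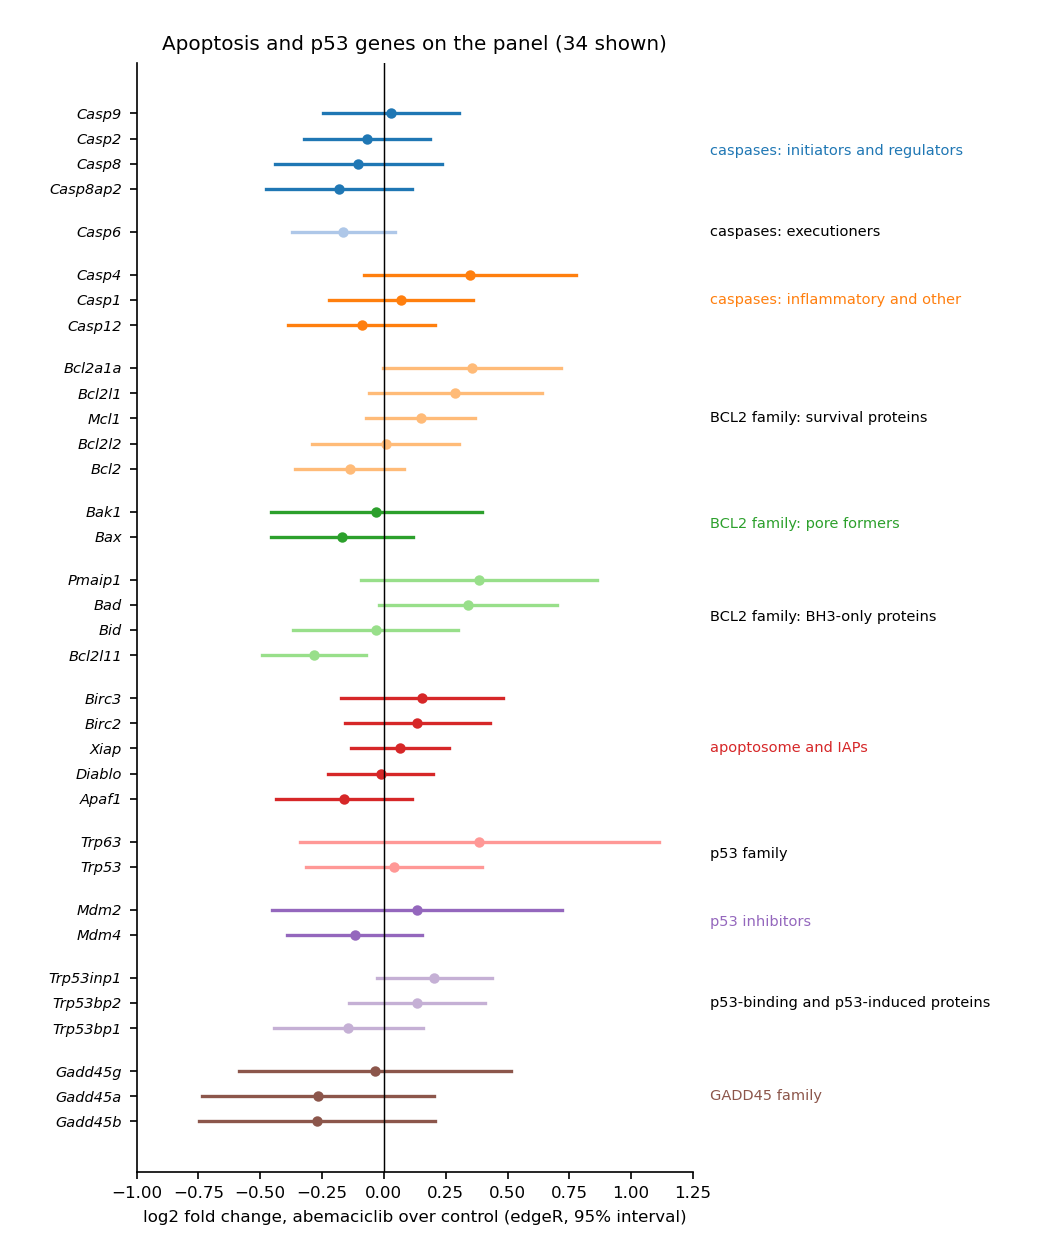
Log2 fold changes of 34 of the 36 tested apoptosis and p53 genes, abemaciclib over control, grouped by role. Points are edgeR estimates and lines their 95% intervals; the interval of Bcl2l11 lies below 0 and those of the other genes shown reach across it.

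Bcl2l11 encodes BIM, the BH3-only protein that can bind every survival member of the family. It lies at chr2:128126038-128162547, + strand of mm10. Its lowest, median and highest levels were 81.2, 135 and 169 CPM in the 12 abemaciclib tumours and 140.0, 158 and 206 CPM in the 11 control tumours. Of the abemaciclib tumours, 8 lay below every control tumour and none above, although the groups overlapped. The mean was 134 ± 24.9 CPM in abemaciclib tumours and 163 ± 20.1 CPM in control tumours (SD), a log2 fold change of -0.28 (SE 0.102) with an unadjusted p of 0.0103 and an adjusted p of 0.197 by edgeR. Over the fits that left out each tumour in turn the log2 fold change stayed at -0.32 to -0.23. Abemaciclib tumour 9 was the lowest of all 23 and control tumour 4 the highest.

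Mcl1, which encodes a short-lived survival protein that BIM binds, lies at chr3:95658788-95663176, + strand of mm10. It was at 267, 299.7 and 432 CPM (lowest, median and highest) in abemaciclib tumours and at 181, 301 and 369.5 CPM in control tumours. The medians lay almost together, and the highest 3 abemaciclib tumours were above every control tumour. Its log2 fold change was 0.15 (SE 0.106), with an adjusted p of 0.58 by edgeR. It was 0.036 with library totals and 0.089 without control tumour 8, the lowest for Mcl1. Abemaciclib tumour 9, the lowest for Bcl2l11, was the highest for Mcl1 at 432 CPM. That tumour had the fewest reads of all, 2756919, and was an extreme for other members too. Among them, it was the highest for Trp53, Bak1 and Gadd45b and the lowest for Casp6, Diablo and Mdm4.

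The promoters of this pair are printed because the ratio of the pair, described further on, separated the groups more than any other ratio computed. Each runs from 250 bases before to 50 bases after the transcription start, 5′ to 3′, from RefSeq on GRCm38.p6. Bcl2l11 has a pair of listed starts, with windows at chr2:128125788-128126087 (+ strand) and chr2:128127325-128127624 (+ strand). Mcl1 has 1, with its window at chr3:95658471-95658770 (+ strand). Capitals mark matches to the motifs searched.
Bcl2l11 first start: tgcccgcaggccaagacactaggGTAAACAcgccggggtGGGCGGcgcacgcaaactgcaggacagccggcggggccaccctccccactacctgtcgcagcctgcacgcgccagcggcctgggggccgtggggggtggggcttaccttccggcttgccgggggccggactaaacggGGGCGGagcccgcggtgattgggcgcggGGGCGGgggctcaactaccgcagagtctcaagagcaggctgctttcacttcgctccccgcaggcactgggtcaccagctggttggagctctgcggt
Bcl2l11 second start: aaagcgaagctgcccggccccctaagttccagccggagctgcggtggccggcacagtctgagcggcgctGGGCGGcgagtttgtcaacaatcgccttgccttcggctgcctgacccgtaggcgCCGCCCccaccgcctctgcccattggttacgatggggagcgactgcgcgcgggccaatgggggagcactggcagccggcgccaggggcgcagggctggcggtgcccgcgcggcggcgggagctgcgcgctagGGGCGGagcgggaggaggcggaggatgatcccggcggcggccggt
Mcl1: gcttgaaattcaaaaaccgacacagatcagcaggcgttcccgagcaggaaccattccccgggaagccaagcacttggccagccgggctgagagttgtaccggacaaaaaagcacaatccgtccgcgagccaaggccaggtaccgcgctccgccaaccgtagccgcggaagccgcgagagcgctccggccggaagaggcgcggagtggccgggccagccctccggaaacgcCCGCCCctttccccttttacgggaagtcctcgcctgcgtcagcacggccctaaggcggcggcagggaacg

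5 motifs were searched on both strands of 32851 RefSeq promoters of the same length, and 33 members matched the table, with 43 promoters. The first Bcl2l11 window held 1 match to the FOXO motif GTAAACA, found in 3.65% of all promoters, and 3 to the GC box GGGCGG, found in 35.7%. The second Bcl2l11 window held 3 GC boxes and the Mcl1 window 1. None of the 3 held the NF-kappaB decamer (0.411% of all promoters), the E2F motif TTTNNCGC (5.17%) or the TATA box TATAAA (13.6%), and no matches in them overlapped. The FOXO letters also occurred in promoters of Casp4 and Mdm2, among 3 members in all.

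The other BH3-only genes tested were Bad, Pmaip1 and Bid, and Bbc3 was not on the panel. BAD is a BH3-only protein held inactive by growth-factor phosphorylation. Bad was at 45.9, 66.8 and 97.5 CPM (lowest, median and highest) in abemaciclib tumours and at 17.3, 54.7 and 90.2 CPM in control tumours, and 9 of the 12 treated tumours exceeded the median control. Control tumour 7 was by far the lowest, and the groups overlapped. Its log2 fold change was 0.34 (SE 0.175), with an adjusted p of 0.407 by edgeR.

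Pmaip1 encodes NOXA, a p53-induced protein that binds MCL1. It was at 4.78, 14.9 and 23 CPM (lowest, median and highest) in abemaciclib tumours and at 7.16, 9.15 and 21.1 CPM in control tumours, from 17 to 120 reads in abemaciclib tumours and 28 to 72 reads in control tumours. The abemaciclib tumours were at both ends of the range, 10 of 12 above the middle control tumour and 2 under the lowest one. The Pmaip1 log2 fold change was 0.38 (SE 0.232) (edgeR adjusted p = 0.49). Bid, the protein that caspase-8 cuts, was at 89.2 to 161 CPM (median 110.0) in abemaciclib tumours and 85.8 to 276 CPM (median 104) in control tumours. Its log2 fold change of -0.033 rested on control tumour 8, the highest for Bid, and was 0.17 without it.

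Among the survival genes, 4 of 5 had positive log2 fold changes. With library totals or upper-quartile factors it was 3 of 5, since Bcl2l2, at 0.0076, turned negative. Bcl2a1a encodes A1, a survival protein of blood cells and a target of NF-kappaB, and lies at chr9:88956900-88962419, + strand of mm10. It was at 18.8, 25.3 and 33.7 CPM (lowest, median and highest) in abemaciclib tumours and at 12.1, 19.7 and 36 CPM in control tumours. With abemaciclib 10 of 12 tumours exceeded the median control, but control tumour 5 was the highest of all. The mean was 26.1 ± 5.27 CPM in abemaciclib tumours and 20.4 ± 7.49 CPM in control tumours (SD). The log2 fold change of Bcl2a1a was 0.36 (SE 0.174) with an adjusted p of 0.382 by edgeR, and 0.36 with an adjusted p of 0.321 by DESeq2. Only limma-voom with quality weights called it higher, at 0.52 with an adjusted p of 0.0482.

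The macrophage markers had the same sign as Bcl2a1a, with Csf1r at 0.45 (SE 0.182), C1qa at 0.47 (SE 0.133), Fcgr3 at 0.69 (SE 0.188) and Msr1 at 0.73 (SE 0.168) on the log2 scale. The 4 T cell markers tested (median 0.35) and the 5 fibroblast markers (median 0.37) were positive too. Of 3 neutrophil markers tested, 2 were positive, among them S100a8 at 0.49 (SE 0.2), and 1 was negative. The part of these cells in the Bcl2a1a value was not tested. The mouse genome holds near-identical copies of Bcl2a1a, so reads may be split between them and its counts are uncertain.

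Bcl2l1 encodes BCL-XL. It was at 304, 420.4 and 527 CPM (lowest, median and highest) in abemaciclib tumours and at 188, 337 and 635 CPM in control tumours, with a log2 fold change of 0.29 (SE 0.17) and an adjusted p of 0.477 by edgeR. Control tumours spanned a wider range than abemaciclib tumours on both sides. Bcl2, the founding member of the family, was at 97.7, 129 and 180.1 CPM (lowest, median and highest) in abemaciclib tumours and at 115, 133 and 195 CPM in control tumours, and 9 of the 12 treated tumours were under the median control. The estimate was -0.14 (SE 0.107) (edgeR adjusted p = 0.616).

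The pore formers both had small negative log2 fold changes. Bax was at 142, 194 and 285 CPM (lowest, median and highest) in abemaciclib tumours and at 148, 214 and 314 CPM in control tumours, a log2 fold change of -0.17 (SE 0.139) (edgeR adjusted p = 0.64). Bak1 was at 70.4, 139 and 266 CPM (lowest, median and highest) in abemaciclib tumours and at 85.5, 130.4 and 257 CPM in control tumours, a log2 fold change of -0.030 (SE 0.207) (edgeR adjusted p = 0.971). The groups overlapped over most of their range for both genes, and the Bak1 value took either sign as single tumours were left out.

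**Figure D2:**
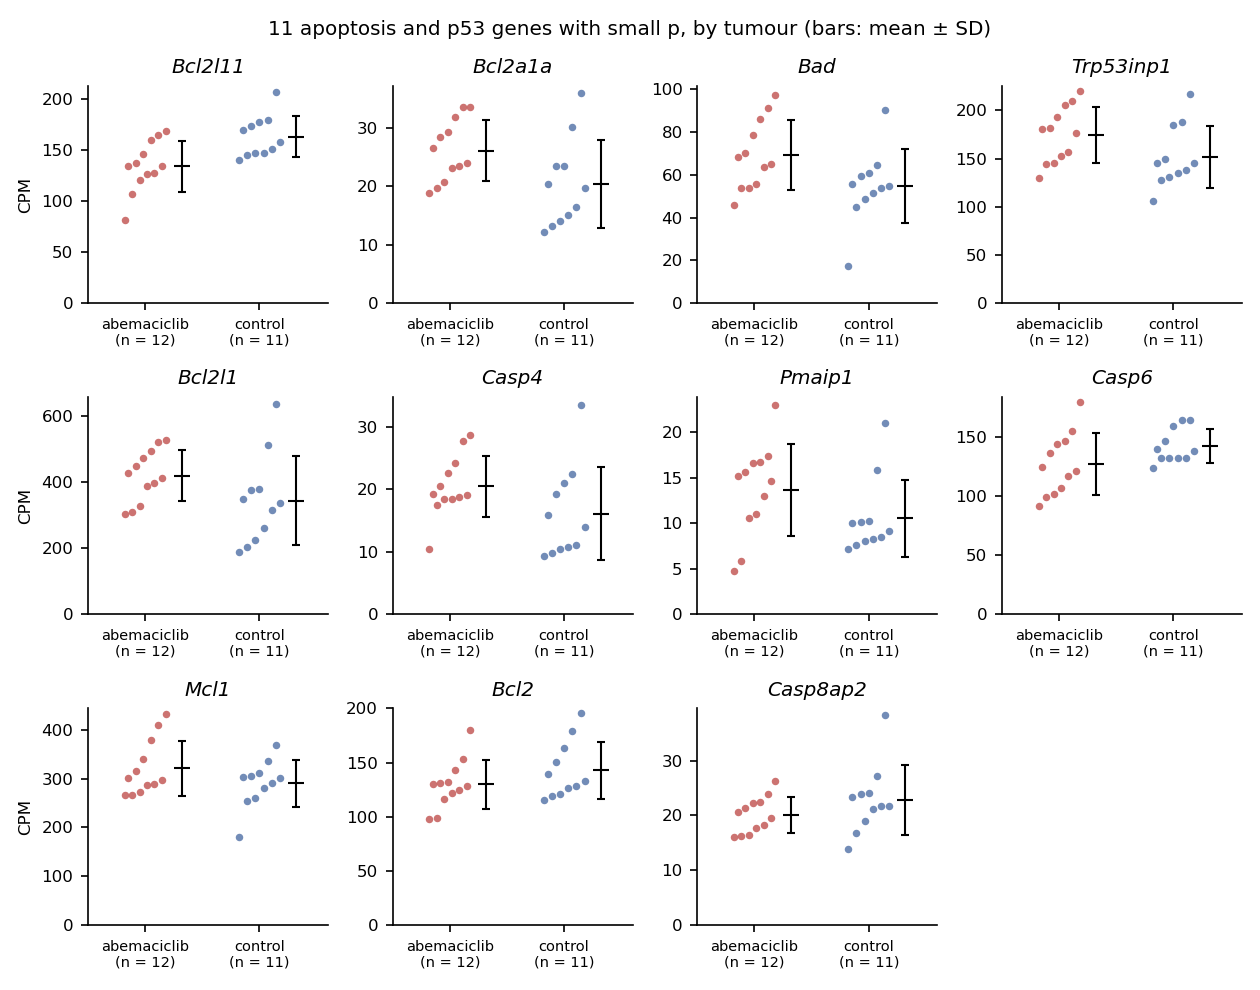
CPM of 11 apoptosis and p53 genes with small p, 1 point per tumour, abemaciclib (red, n = 12) left of control (blue, n = 11), with mean ± SD. Bcl2l11 has 8 abemaciclib tumours below every control tumour, and the groups overlap in each gene shown.

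Of the initiator caspases and their regulator, 1 had a positive and 3 a negative log2 fold change. Casp8, the initiator at death receptors, was at 69.2, 107 and 132 CPM (lowest, median and highest) in abemaciclib tumours and at 59.4, 111 and 201 CPM in control tumours, a log2 fold change of -0.10 (SE 0.164) (edgeR adjusted p = 0.835). Casp9, the initiator on the apoptosome, was at 27.8, 39 and 59.7 CPM (lowest, median and highest) in abemaciclib tumours and at 32.1, 41.1 and 45.6 CPM in control tumours. The Casp9 medians were close but the abemaciclib tumours were more spread, with 4 above and 5 below every control tumour. The Casp9 log2 fold change was 0.028 (SE 0.133) (edgeR adjusted p = 0.959), and it was negative with library totals and with upper-quartile factors. Casp2 stood at -0.068 and Casp8ap2, a caspase-8 binding protein, at -0.18 (SE 0.143). Casp8ap2 was at 16.1, 20.1 and 26.3 CPM (lowest, median and highest) in abemaciclib tumours and at 13.9, 21.8 and 38.4 CPM in control tumours, where control tumours reached both lower and higher.

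Casp6, an executioner caspase that cuts lamins, was at 91.8, 123 and 179.6 CPM (lowest, median and highest) in abemaciclib tumours and at 124, 138 and 164 CPM in control tumours. Of the abemaciclib tumours, 6 of 12 lay below every control tumour for Casp6 and 1 lay above, so they extended past the controls at both ends. The log2 fold change of Casp6 was -0.16 (SE 0.101) (edgeR adjusted p = 0.502).

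The inflammatory caspases drive pyroptosis and cytokine release rather than classical apoptosis. Casp4, known in the mouse as caspase-11 and the sensor of intracellular lipopolysaccharide, was at 10.5, 19.2 and 28.7 CPM (lowest, median and highest) in abemaciclib tumours and at 9.26, 13.9 and 33.6 CPM in control tumours. With abemaciclib 11 of 12 tumours exceeded the median control, while control tumour 6 was the highest of all. The estimate was 0.35 (SE 0.208) on the log2 scale (edgeR adjusted p = 0.486). Casp1, which cuts interleukin-1 beta, stood at 0.070 and turned negative with library totals, and Casp12 stood at -0.090. Casp14, a caspase of cornifying skin, had 0 to 13 reads in abemaciclib tumours and 0 to 3 reads in control tumours, too few for the test.

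Downstream of the mitochondria, Apaf1, the scaffold of the apoptosome, was at 36 to 74.7 CPM (median 49.1) in abemaciclib tumours and 38.2 to 75.2 CPM (median 54.5) in control tumours, with a log2 fold change of -0.16 (SE 0.133). Xiap, which blocks caspases directly, stood at 0.065, and Diablo, which relieves that block, at -0.013. Birc2 and Birc3, the ubiquitin ligases cIAP1 and cIAP2, stood at 0.13 and 0.15. Xiap and Birc2 turned negative with library totals, and none of the 5 had an edgeR adjusted p below 0.642. Xiap varied least among all the members tested, at 166 to 259.7 CPM (median 214) in abemaciclib tumours and 161 to 238 CPM (median 196) in control tumours.

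Trp53 encodes p53 and lies at chr11:69580359-69591873, + strand of mm10. It was at 219.7, 314 and 833 CPM (lowest, median and highest) in abemaciclib tumours and at 285, 351 and 518 CPM in control tumours. Abemaciclib tumour 9 was the highest of all 23, well above the next tumour, control tumour 8 at 518 CPM, while 4 abemaciclib tumours lay below every control tumour. The log2 fold change was 0.041 (SE 0.173), with an adjusted p of 0.953 by edgeR. Without abemaciclib tumour 9 it was -0.13, and with library totals -0.080, so its direction was not stable.

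Trp63 encodes p63, a relative of p53 that marks basal and squamous epithelium. It was at 21.2, 39.6 and 151 CPM (lowest, median and highest) in abemaciclib tumours and at 8.42, 37.3 and 68.5 CPM in control tumours. Abemaciclib tumours 3 and 10 were above every control tumour, and the other abemaciclib tumours lay within the control range. The log2 fold change was 0.39 (SE 0.352), and -0.17 without those tumours, with an edgeR adjusted p of 0.671 with them. Trp73, the third of the family, had 0 to 72 reads in abemaciclib tumours and 1 to 48 reads in control tumours, with abemaciclib tumours 10 and 3 again the highest at 16.5 and 10.9 CPM.

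Mdm2 encodes the ubiquitin ligase that removes p53 and is itself a p53 target, and lies at chr10:117688875-117710758, - strand of mm10. It was at 351, 692 and 2272 CPM (lowest, median and highest) in abemaciclib tumours and at 303, 619.9 and 1393 CPM in control tumours. The spread within each group was far wider than the distance between the medians, and abemaciclib tumour 1 was the highest of all. The log2 fold change was 0.13 (SE 0.285) (edgeR adjusted p = 0.885), and -0.12 without abemaciclib tumour 1. Mdm2 counts ran nearly in proportion to those of Ngfr and Vezf1, as described further on. Whether they measure Mdm2 alone was not tested, which touches its fold change, its ratio to Trp53 and its correlations. Mdm4, which holds p53 inactive without degrading it, was at 29.9, 47.2 and 64.5 CPM (lowest, median and highest) in abemaciclib tumours and at 36.1, 51.6 and 75.2 CPM in control tumours, a log2 fold change of -0.12 (SE 0.132) (edgeR adjusted p = 0.737).

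Trp53inp1, a p53-induced stress gene, was at 129.6, 179 and 219.7 CPM (lowest, median and highest) in abemaciclib tumours and at 106, 145 and 217 CPM in control tumours. Of the treated tumours 9 of 12 exceeded the median control, and its log2 fold change was 0.20 (SE 0.113) (edgeR adjusted p = 0.443). Trp53bp2 stood at 0.14 and Trp53bp1, which protects broken DNA ends, at -0.14.

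The 3 GADD45 genes, which respond to growth arrest and DNA damage, had negative log2 fold changes, also under each scaling tried. Gadd45a stood at -0.27 (SE 0.228), Gadd45b at -0.27 (SE 0.232) and Gadd45g at -0.036 (SE 0.267), and none of the 3 had an edgeR adjusted p below 0.648. Gadd45a was at -0.084 without control tumour 8, which held 127 CPM against 65 CPM in the next control tumour. For Gadd45b 10 of 12 treated tumours were under the median control, yet abemaciclib tumour 9 was its highest, at 87.7 CPM. Gadd45g had 10 to 92 reads in abemaciclib tumours and 21 to 90 reads in control tumours, and its sign turned with limma-voom and when single tumours were left out.

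Ratios of a pair of genes within a tumour do not depend on how libraries are scaled, and 4 were computed, on the log2 scale of counts with 2 added to each. Bcl2l11 over Mcl1, the BIM to MCL1 transcript balance, was at -2.40, -1.28 and -0.78 (lowest, median and highest) in abemaciclib tumours and at -1.10, -0.89 and -0.30 in control tumours. It averaged -1.27 ± 0.432 in abemaciclib tumours (SD, n = 12) and -0.82 ± 0.256 in control tumours (SD, n = 11). The ratio was lower with abemaciclib, by a difference of -0.45, and 10 of 12 treated tumours were under the median control, though the groups overlapped. A two-sided permutation test gave p = 0.00256 and 0.0102 when adjusted over the 4 ratios, and the adjusted p ran from 0.00292 to 0.0742 over the alternatives. Abemaciclib tumour 9 was the lowest by a wide margin, and the adjusted p over the permutation tests that left out each tumour in turn stayed at 0.00292 to 0.0266. Neither gene alone passed the test across all genes, and the ratio was among pairs chosen with earlier results of these data known.

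The other 3 ratios did not pass, each with an adjusted permutation p of 0.877. Bax over Bcl2, the pore-former to survival balance, averaged 0.61 ± 0.495 in abemaciclib tumours and 0.64 ± 0.394 in control tumours, a difference of -0.029. Mdm2 over Trp53 averaged 1.09 ± 1.11 in abemaciclib tumours and 0.91 ± 0.923 in control tumours, a difference of 0.17. Casp8 over Cflar, the gene of the caspase-8 decoy FLIP, averaged -1.20 ± 0.678 in abemaciclib tumours and -0.99 ± 0.677 in control tumours, a difference of -0.21. None of these 3 differences was stable in size. Without abemaciclib tumours 3 and 10 they were -0.16 for Bax over Bcl2, 0.34 for Mdm2 over Trp53 and -0.39 for Casp8 over Cflar. Leaving out each tumour in turn took Casp8 over Cflar from -0.32 without control tumour 9 to -0.070 without control tumour 7, and the first 2 to either side of 0.

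**Figure D3:**
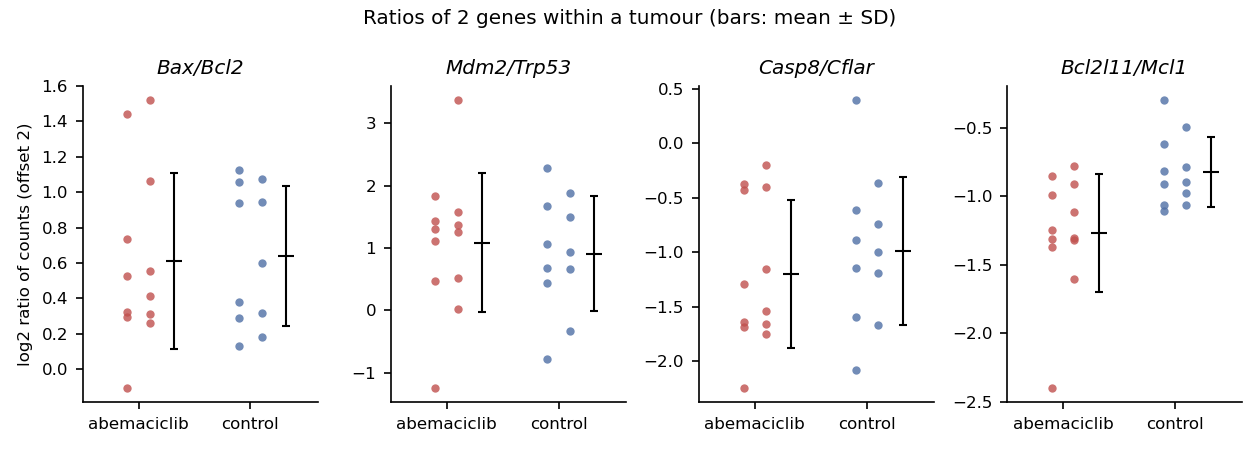
Log2 ratios of counts within a tumour, 1 point per tumour, abemaciclib (red, n = 12) left of control (blue, n = 11), with mean ± SD. Bcl2l11 over Mcl1 averages -1.27 in abemaciclib tumours and -0.82 in control tumours, and the groups overlap in all 4 ratios.

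Covariation across tumours was examined for 10 pairs of genes within each group, 20 relations in all, on log2 CPM. Trp53 followed Mki67, the proliferation antigen, within the abemaciclib tumours (Pearson r = 0.76, permutation p = 0.00231, adjusted p = 0.0231; Spearman rho = 0.84, permutation p = 0.001, adjusted p = 0.02; n = 12). Without tumours 2 and 9, the farthest from the Trp53 median, r was 0.84. In control tumours r was 0.57 (permutation p = 0.0707, adjusted p = 0.353, n = 11) and 0.28 without tumours 2 and 8. Both genes share the scaling of their library, and with library totals r in control tumours was 0.79 with an adjusted permutation p of 0.0223. Whether the relation differs between the groups was not tested.

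Trp63 followed Krt14, a basal keratin, within the abemaciclib tumours (Pearson r = 0.80, permutation p = 0.00216, adjusted p = 0.0231; Spearman rho = 0.62, permutation p = 0.0368, adjusted p = 0.368; n = 12). The Pearson value rested on abemaciclib tumours 3 and 10, which were highest for both genes, and was 0.43 without them (permutation p = 0.215). In control tumours r was 0.47 (permutation p = 0.144, adjusted p = 0.463, n = 11) and 0.76 without tumours 8 and 11. Summed basal keratin and Acta2 levels were 493 to 12666 CPM (median 1461) in abemaciclib tumours and 762 to 5073 CPM (median 1217) in control tumours.

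The other relations did not pass. Mdm2 and Cdkn1a, both p53 targets, had r = -0.35 within each group (adjusted permutation p = 0.463 in each). Bax and Mdm2, also both p53 targets, had r = -0.24 in abemaciclib tumours and -0.37 in control tumours (adjusted permutation p = 0.609 and 0.463). Birc2 and Birc3, neighbours on chromosome 9, had r = 0.34 in abemaciclib tumours and 0.25 in control tumours (adjusted permutation p = 0.463 and 0.609). Bcl2l11 and Mcl1 had r = -0.33 in abemaciclib tumours and 0.38 in control tumours (adjusted permutation p = 0.463 in each).

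**Figure D4:**
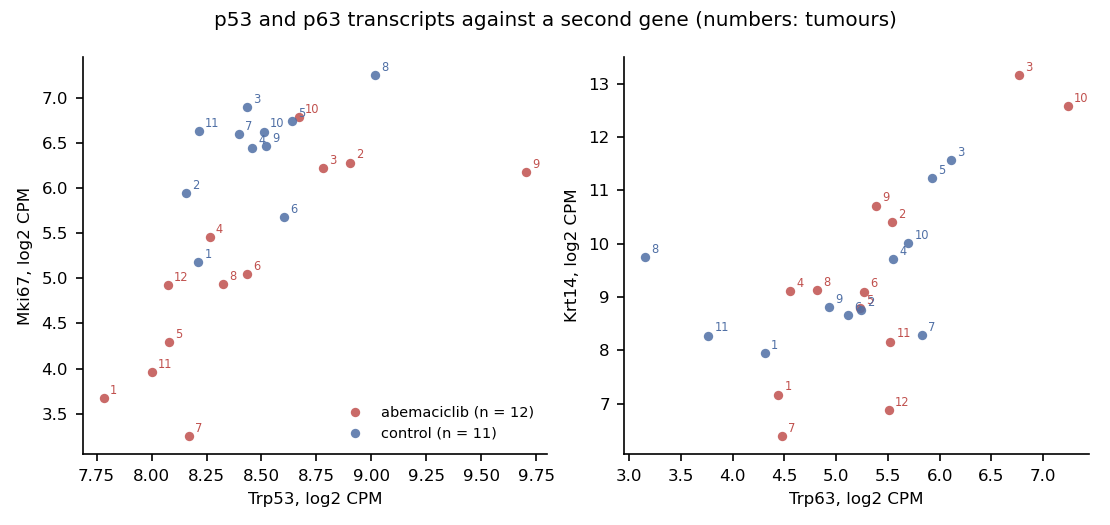
Trp53 against Mki67 (left) and Trp63 against Krt14 (right) in log2 CPM, 1 point per tumour with its number, abemaciclib in red and control in blue. Within abemaciclib tumours r is 0.76 for Trp53 and Mki67, and tumours 3 and 10 carry the r of 0.80 for Trp63 and Krt14.

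Mdm2 counts ran from 930 to 6650 reads across the 23 tumours, and followed those of Ngfr, Vezf1 and Otx2 most closely. This description was chosen after its values were seen. Among 2924 other tested genes, the log2 ratio of Mdm2 to Ngfr counts had the smallest SD, 0.137, against a median SD of 0.793 over all genes. The ratio of counts itself was 0.692 to 1.01 in abemaciclib tumours and 0.724 to 0.963 in control tumours. The ratio of Mdm2 to Vezf1 counts was next, between 0.195 and 0.225 in 22 of 23 tumours and 0.0951 in abemaciclib tumour 9. Next was Otx2, a homeobox gene of the eye and brain, with an SD of 0.351. The SD of Mdm2 itself, as a log2 share of the reads, was 0.622. Other members had a closest gene at a similar or smaller SD, such as Xiap to Itch at 0.0942 and Diablo to Stat6 at 0.144. Xiap and Diablo themselves varied less than Mdm2, with SDs of 0.221 and 0.336 as a log2 share of the reads. Ngfr encodes a neurotrophin receptor and Vezf1 a zinc-finger factor of blood vessels. Why the counts run together was not tested, and amplicon positions were not analysed here.

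**Figure D5:**
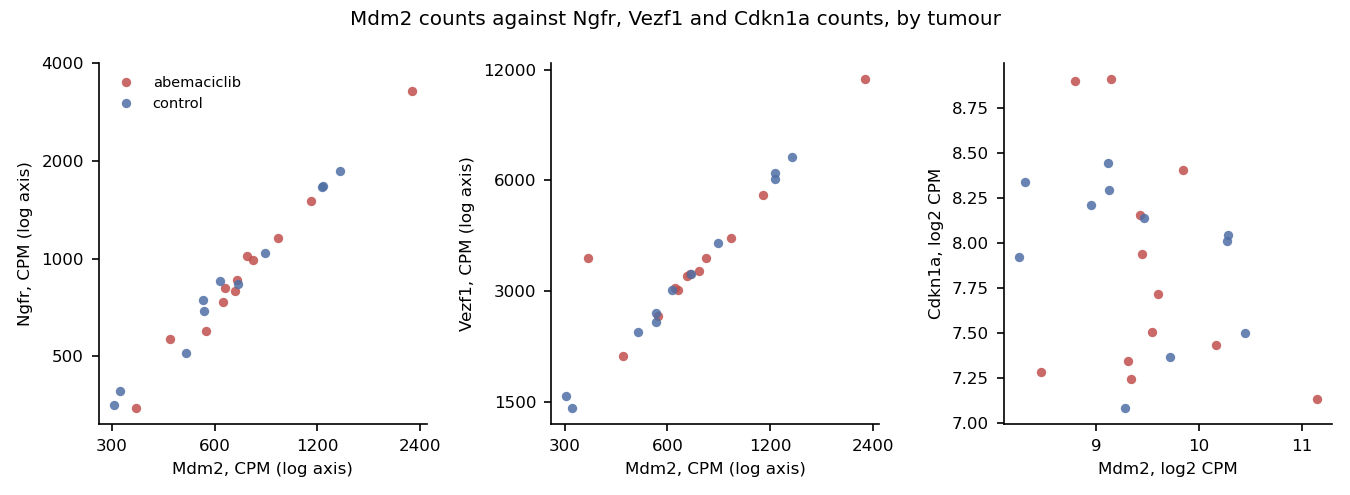
Mdm2 against Ngfr and Vezf1 in CPM on log axes, and against Cdkn1a in log2 CPM, 1 point per tumour, abemaciclib in red and control in blue. The count ratio of Mdm2 lies between 0.692 and 1.01 to Ngfr in all 23 tumours and between 0.195 and 0.225 to Vezf1 in 22. Mdm2 and Cdkn1a levels have r = -0.35 in each group.

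Genes around the core machinery were read from lists chosen with earlier results known, and none of their genes was called by edgeR, DESeq2 or limma-voom. For comparison, 1496 of all 2925 genes tested were positive, and 13.4% had an unadjusted edgeR p under 0.05 (7.59% higher, 5.81% lower). Of 13 death-receptor and adaptor genes tested, 10 were positive and 3 negative, and 1 had an unadjusted edgeR p under 0.05, a share below the 13.4% of all genes. That gene was Tnfsf10, which encodes the death ligand TRAIL, at 47.1 ± 23.1 CPM in abemaciclib tumours and 28.7 ± 10.1 CPM in control tumours, a log2 fold change of 0.71 (SE 0.262) with an edgeR adjusted p of 0.206. With abemaciclib 11 of 12 tumours exceeded the median control.

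Of 34 other p53 target genes listed, 16 were on the panel and 14 were tested, so many targets were not measured. Of the 14, 8 were positive and 6 negative, and none had an unadjusted edgeR p under 0.05. Xpc, a DNA damage sensor, stood at 0.12 (SE 0.103) and Ddit4, an inhibitor of mTOR signalling, at -0.21 (SE 0.183) on the log2 scale. Of 17 p53 activators and regulators, 7 were positive and 10 negative, and 1 passed that level, Chek1, a checkpoint kinase of replicating cells, at -0.86 (SE 0.339). It had only 1 to 39 reads in abemaciclib tumours and 12 to 50 reads in control tumours, with an edgeR adjusted p of 0.233. For Chek1 10 of 12 treated tumours were under the median control. The proliferation markers given above had the same sign, and their part in its value was not tested.

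Of 7 caspase substrates and execution genes, 4 were positive and 3 negative, and Parp1, a DNA repair enzyme that caspases cut, stood at -0.31 (SE 0.107) with an edgeR adjusted p of 0.185. Of 16 inflammasome genes listed, 7 were on the panel and 6 were tested, with a lowest edgeR adjusted p of 0.190. The list was chosen with earlier results known, so its shares are no test of these genes as a set. Of the 6, 5 were positive and 1 negative, and 3 had an unadjusted edgeR p under 0.05, all higher, beside 7.59% of all genes. These were Naip2, a sensor of bacterial proteins, at 0.59 (SE 0.211), Pycard, the adaptor ASC, at 0.38 (SE 0.134), and Nod2, a peptidoglycan sensor, at 0.58 (SE 0.274). The macrophage markers given above had the same sign as these 3 genes, and their part in them was not tested.

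Of 9 necroptosis and autophagy genes, 3 were positive and 6 negative, with none at an unadjusted edgeR p under 0.05. Of 7 further BCL2-family genes and regulators, 3 were positive and 4 negative, with Pim1, a kinase that phosphorylates BAD, at -0.26 (SE 0.127) and the edgeR adjusted p at 0.368. Of 11 NF-kappaB survival genes, 6 were positive and 5 negative, with none at an unadjusted edgeR p under 0.05.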

How the data were processed

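Reads per gene were measured in 23 tumours on an Ion AmpliSeq panel. The deposited values are raw whole-number counts, made on mm10, per the submitters' processing notes, by an aligner and counter not given in the sources used here. Without molecular identifiers, PCR copies are counted too.

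Genes passing filterByExpr (2925) were scaled by TMM and tested with glmQLFit and glmQLFTest in edgeR 4.0.16 (R 4.3.3), two-sided, with Benjamini-Hochberg adjustment over all of them. CPM use TMM-scaled totals, and log2 CPM a prior count of 2. Ratios and correlations used permutation tests with 100000 resamples. Intervals are at 95%. Alternatives were DESeq2 1.42.0, limma 3.58.1 voom with quality weights, other scalings and filters, a replicate block and leaving out tumours. Members and lists were chosen with earlier results of these data known. Named with values are the 12 members with the smallest p, a set list of core genes, and up to 3 genes per pathway list; some of these genes are not reported here. On simulated data, edgeR called 40 of 67 genes changed 1.5-fold, 64 of 67 changed 2-fold, 66 of 66 changed 4-fold and 3 of 2714 unchanged genes, with 2914 genes in the fit. Those counts were drawn independently at the fitted dispersions, with no outlying tumours, so the shares are not the power on the real tumours. There the 6 proliferation markers, at a median log2 fold change of -1.04, gave 0 edgeR calls. Positions are 1-based, from GENCODE on GRCm38, the assembly mm10 names.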

Additional observations from a re-analysis of the deposited data

How the results depend on the processing

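The count of all genes called by edgeR, 0 as reported, was 1 with library totals, 60 with the DESeq2 Wald test, 127 with limma-voom and 93 without abemaciclib tumours 3 and 10 (32 higher, 61 lower). It ran from 0 to 47 as each tumour was left out, with 47 without abemaciclib tumour 10, 30 without abemaciclib tumour 2, 10 without abemaciclib tumour 3 and 9 without control tumour 6. Members called numbered 0 except for 1 with limma-voom, and their median log2 fold change was -0.11 with library totals. With the replicate number as a block, Bcl2l11 over Mcl1 differed by -0.47 (exact sign-flip test, adjusted p = 0.0742), edgeR called 0 genes, and same-numbered tumours correlated at -0.428 to 0.454, with 2 of 11 best matched to their own number, so the numbers were not taken to pair tumours. Signs turned as follows, and the cause was not tested. With library totals, Bcl2l2 was at -0.11, Casp1 -0.080, Casp9 -0.11, Trp53 -0.080, Xiap -0.083 and Birc2 -0.014. With upper-quartile factors Bcl2l2 was at -0.030 and Casp9 -0.0095. With limma-voom Bid was at 0.074, Casp8 0.022, Casp9 -0.0063, Gadd45g 0.057 and Trp53 -0.083. With the replicate block Bak1 was at 0.024, Bid 0.012, Casp9 -0.028 and Trp53 -0.0091. Without abemaciclib tumours 3 and 10, Casp1 was at -0.025, Trp53 -0.011 and Trp63 -0.17. The r of Casp1 and Casp4 in abemaciclib tumours was -0.038 with TMM, 0.14 with library totals and 0.0014 without tumours 3 and 10. The r of Casp8ap2 and Mki67 was -0.18 in abemaciclib and -0.12 in control tumours with TMM, and 0.39 and 0.21 with totals. That of Bcl2 and Krt8 in control tumours was -0.016 with TMM and 0.016 with totals. Leaving out each tumour gave Bak1 -0.16 to 0.10, Bcl2l2 -0.047 to 0.082, Bid -0.086 to 0.17, Casp8 -0.17 to 0.023, Casp9 -0.038 to 0.064, Diablo -0.055 to 0.028, Gadd45g -0.18 to 0.076, Mdm2 -0.12 to 0.26, Trp53 -0.13 to 0.10, the Bax/Bcl2 ratio -0.11 to 0.036 and the Mdm2/Trp53 ratio -0.033 to 0.39.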
